A study of Mus musculus with 6 samples.

Results

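The 9 genes examined here encode transcription factors of GABAergic interneurons and the enzymes that make GABA, and they were taken by name. Gad1 and Gad2 encode the glutamate decarboxylases, Dlx1, Dlx2, Dlx5 and Dlx6 encode homeodomain factors, and Lhx6, Maf and Sox6 encode regulators of interneurons born in the medial ganglionic eminence. All 9 were among the 55357 genes of the count tables and among the 21876 tested, which had 6 or more reads in 1 or more libraries.

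The data were RNA-seq libraries of wild-type mouse primary neuronal cultures, prepared from the cortex and hippocampus of C57BL/6N embryos at E18. In the shCtrl group (n = 3) the cultures received a lentivirus with a scrambled shRNA. In the shPla2g4e group (n = 3) they received a lentivirus with the shRNA sh2 against Pla2g4e, which encodes an N-acyltransferase that makes N-acyl-phosphatidylethanolamines. Both viruses were added at DIV4, and poly(A) RNA was taken from all cultures at DIV14. The comparison asked which transcripts change when Pla2g4e is lowered while neurons mature. A single hairpin against Pla2g4e and a single control hairpin were used, the methods name no restriction of the virus to a cell type, and the virus dose had been set by how far it lowered Pla2g4e. The labels do not say whether the 3 libraries of a group came from separate dissections, so the p-values measure the spread between these libraries, which may be technical.

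Cortical and hippocampal interneurons arise in the ganglionic eminences of the ventral forebrain and migrate into the cortex. Dlx1 and Dlx2 are active early in these progenitors and precede Dlx5 and Dlx6. Lhx6 follows in the cells of the medial ganglionic eminence that become somatostatin and parvalbumin interneurons, where Sox6 and Maf act after it. Glutamate decarboxylases convert glutamate to GABA, the vesicular transporter loads GABA into synaptic vesicles, and plasma membrane transporters take it up again.

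Between 17054717 and 23570180 reads were counted per library, and the members had 86 to 8943 reads in a library. The targeted transcript Pla2g4e was at 38.0, 35.1 and 35.4 CPM (reads per library scaled to a common total with TMM factors) in the shCtrl libraries and at 21.8, 14.1 and 18.7 CPM in the shPla2g4e libraries. The level in shPla2g4e was 50.5% of that in shCtrl (log2 fold change −0.99, SE 0.13, edgeR adjusted p = 1.24e-04), and the groups did not overlap. With edgeR's quasi-likelihood test and a Benjamini-Hochberg adjusted p below 0.01, 1419 genes (6.49%) were differentially expressed (DEGs), 876 down-regulated and 543 up-regulated. Scaling by library size alone gave 609 and 796, which moved the median over all genes tested from 0.03 to 0.10 on the log2 scale.

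Among the 9 genes, Lhx6 was the single DEG. It was down-regulated, whereas 4.00% of all genes tested were down-regulated and 2.48% were up-regulated. None of the 9 was up-regulated by edgeR, limma after voom or DESeq2, and each of these called 1 down-regulated. At an unadjusted p below 0.05 the edgeR test gave 4 lower and 0 higher, against 12.9% and 12.8% of all genes. In a fit with the replicate number as a block, 2 of the 9 were down-regulated (Lhx6 and Gad2), against 9.02% of all genes. At an adjusted p below 0.05 the same 2 genes were lower and none was higher, against 7.31% and 5.55% of all genes. The shPla2g4e libraries lay below all shCtrl libraries for 4 of the 9 (Gad1, Gad2, Lhx6 and Maf), as they did for 14.6% of all genes, and above them for none, against 15.5% of all genes. The median log2 fold change of the 9 was −0.19 (−0.11 when scaled by library size alone), with 7 below 0 and 2 above. Of all genes tested, 10162 lay below 0 and 11714 above.

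**Figure D1:**
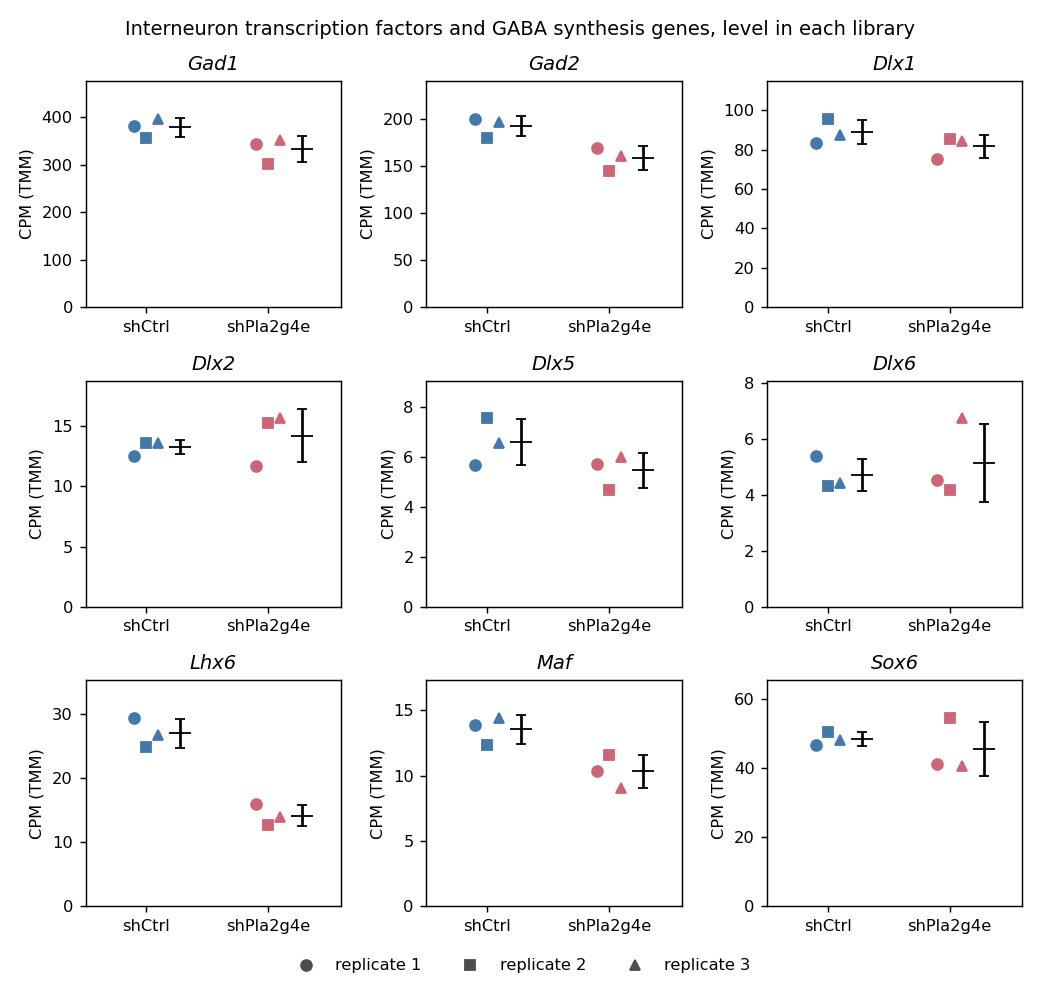
Level of each gene in CPM (linear axes from 0) in the 3 shCtrl and 3 shPla2g4e libraries, with the marker shape giving the replicate number and bars giving the mean ± SD (n = 3). The shPla2g4e libraries of Lhx6 lie between 12.6 and 15.9 CPM, below the shCtrl libraries at 24.9 to 29.3 CPM, while those of Dlx1, Dlx2, Dlx5, Dlx6 and Sox6 overlap the shCtrl libraries.

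In levels per exon length (CPM per kilobase of exon), the shCtrl cultures ranked the genes from Gad1 at 49.6 ± 2.62 and Gad2 at 32.6 ± 1.82 through Dlx1 at 16.5 ± 1.15 to Lhx6 at 5.61 ± 0.469 (SD, n = 3). The lower ranks were held by Dlx2 at 4.64 ± 0.207, Sox6 at 3.26 ± 0.132, Dlx5 at 2.92 ± 0.414, Dlx6 at 1.99 ± 0.244 and Maf at 1.64 ± 0.132 CPM per kilobase. Of neighbours in this order, Sox6 and Dlx5 overlapped between libraries and the other neighbours did not. The length used counts all annotated exon bases of a gene. For Sox6 these were 14832 bases, against 8668 in its longest coding transcript. The order of genes close in level and their overlaps thus depend on this length. In shPla2g4e the level of Lhx6 was 2.63 to 3.31 CPM per kilobase. This lay below the 4.09 to 5.48 CPM per kilobase of Dlx2 and overlapped the 2.74 to 3.67 of Sox6. By group mean Lhx6 thus ranked below Dlx2 and Sox6 in shPla2g4e, and the relative order of the other 8 genes was kept.

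**Figure D2:**
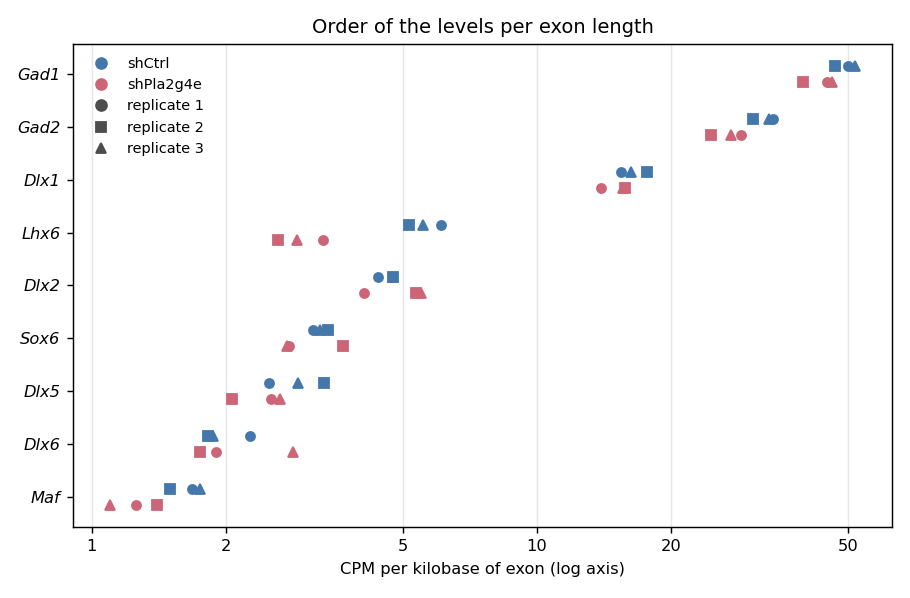
CPM per kilobase of exon (log axis) of the 9 genes in each library, ordered by the shCtrl mean, with colour for the group and marker shape for the replicate number. In shPla2g4e, Lhx6 drops from 5.17 to 6.11 CPM per kilobase to 2.63 to 3.31, whereas the shPla2g4e points of Dlx1, Dlx2, Dlx5, Dlx6 and Sox6 overlap their shCtrl points.

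Gad1 (chromosome 2, 70383416 to 70432358, plus strand, GRCm39) encodes GAD67, the decarboxylase that supplies most GABA. It was at 382, 357 and 397 CPM in shCtrl and at 344, 303 and 353 CPM in shPla2g4e. The groups did not overlap, but the highest shPla2g4e library lay only just below the lowest shCtrl library. The mean level went from 379 ± 20.05 to 333 ± 26.7 CPM (SD, n = 3), a log2 fold change of −0.19 (SE 0.084, 95% interval −0.36 to −0.01) with an edgeR adjusted p of 0.171. This fold change was −0.23 to −0.12 when 1 library was left out, and −0.11 when scaled by library size alone. With the replicate block the edgeR adjusted p was 0.0173, also above the threshold.

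Gad2 (chromosome 2, 22512217 to 22583886, plus strand) encodes GAD65, the decarboxylase found at synaptic terminals. Its level was 199.9, 179.7 and 196 CPM in shCtrl and 169, 145 and 160.5 CPM in shPla2g4e, and all shPla2g4e libraries lay below the shCtrl libraries. In both groups replicate 2 was the lowest. The mean in shPla2g4e was 82.4% of that in shCtrl (log2 fold change −0.28, SE 0.083, 95% interval −0.46 to −0.10). The edgeR adjusted p was 0.0365, which misses the threshold of 0.01, and it was 4.26e-04 with the replicate block, where Gad2 was down-regulated.

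The balance between both decarboxylases was compared within libraries. The ratio of Gad1 to Gad2 reads was 1.91, 1.99 and 2.03 in shCtrl and 2.03, 2.09 and 2.20 in shPla2g4e. On the log2 scale the ratio differed by 0.09 (0.98 ± 0.042 in shCtrl, 1.08 ± 0.057 in shPla2g4e, exact two-sided permutation p = 0.1, adjusted p = 0.15 over 3 such ratios). With 3 libraries against 3, the smallest p this test can give is 0.1. Between libraries of the same number the log2 ratio differed by 0.09, 0.07 and 0.12, and the exact permutation test within these pairs gave p = 0.25, the smallest it can give.

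Dlx1 and Dlx2 face each other on chromosome 2, 9.43 kb apart, with Dlx1 at 71358457 to 71364325 on the plus strand and Dlx2 at 71373752 to 71377098 on the minus strand. Dlx1 was at 83.5, 95.7 and 87.7 CPM in shCtrl and at 75.2, 85.3 and 84.4 CPM in shPla2g4e, and the groups overlapped. Its log2 fold change was −0.13 (SE 0.085, 95% interval −0.31 to 0.06, edgeR adjusted p = 0.399), and −0.17 to −0.07 when 1 library was left out. Dlx2 was at 12.6, 13.6 and 13.6 CPM in shCtrl and at 11.7, 15.3 and 15.7 CPM in shPla2g4e. Its shPla2g4e replicate 1 was the lowest of all 6 libraries and replicates 2 and 3 were the highest. The log2 fold change of Dlx2 was 0.10 (SE 0.14, 95% interval −0.20 to 0.39, edgeR adjusted p = 0.731). It was 0.02 without shPla2g4e replicate 3 and 0.22 without shPla2g4e replicate 1.

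The log2 ratio of Dlx1 to Dlx2 went from 2.75 ± 0.064 in shCtrl to 2.53 ± 0.14 in shPla2g4e. The difference of −0.21 had an exact two-sided permutation p of 0.1, the smallest this design allows, and an adjusted p of 0.15. Exons of the antisense transcript Dlx1as overlap 6.21% of the exon bases of Dlx1, and the counting did not use strand. Dlx1as had only 90 to 130 reads in a library and its log2 fold change was −0.03 (edgeR adjusted p = 0.945).

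Dlx5 and Dlx6 lie 9.24 kb apart on chromosome 6, with Dlx6 at 6863334 to 6868568 on the plus strand and Dlx5 at 6877805 to 6882085 on the minus strand. Dlx5 was at 5.68, 7.55 and 6.57 CPM in shCtrl and at 5.73, 4.67 and 5.999 CPM in shPla2g4e. The groups overlapped through shCtrl replicate 1. The log2 fold change was −0.27 (SE 0.18, 95% interval −0.66 to 0.12, edgeR adjusted p = 0.396), on 101 to 150 reads in a library. When 1 library was left out it was −0.37 to −0.17.

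Dlx6 was at 5.38, 4.33 and 4.44 CPM in shCtrl and at 4.52, 4.16 and 6.74 CPM in shPla2g4e, where replicate 3 alone stood above the shCtrl libraries. Its log2 fold change of 0.11 (SE 0.22, 95% interval −0.35 to 0.58, edgeR adjusted p = 0.808) became −0.12 without that library, so that no direction can be given. The log2 ratio of Dlx5 to Dlx6 differed by −0.37 (0.48 ± 0.37 in shCtrl, 0.11 ± 0.26 in shPla2g4e, exact two-sided permutation p = 0.3, adjusted p = 0.3). For both genes the data do not tell apart changes of a size within these intervals.

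Lhx6 (chromosome 2, 35971965 to 35995420, minus strand) encodes a LIM homeodomain factor needed by interneurons of the medial ganglionic eminence for their migration and their somatostatin or parvalbumin fate. It was at 29.3, 24.9 and 26.7 CPM in shCtrl and at 15.9, 12.6 and 13.9 CPM in shPla2g4e. The gap between the groups was wider than the range within either, and replicate 2 was the lowest in both. The mean fell from 26.98 ± 2.25 to 14.1 ± 1.65 CPM (SD, n = 3), or to 52.4% (log2 fold change −0.93, SE 0.12, 95% interval −1.19 to −0.68, edgeR adjusted p = 9.13e-05). Lhx6 was down-regulated under all 17 alternatives tried, with log2 fold changes from −1.03 to −0.85. Fewer Lhx6-expressing cells and less Lhx6 RNA per cell cannot be told apart in such bulk libraries, and the same holds for every gene described here.

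Relative to the other members, the ratio of Lhx6 to Gad1 reads was 0.0767, 0.0696 and 0.0673 in shCtrl and 0.0463, 0.0417 and 0.0394 in shPla2g4e. The ratio of Lhx6 to Dlx1 reads was 0.351, 0.260 and 0.305 in shCtrl and 0.211, 0.148 and 0.164 in shPla2g4e. The groups did not overlap in either ratio. Both ratios were chosen after the values were seen and were not tested.

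Hairpins of this kind are known to act also on transcripts that pair with their seed, so the sequences are shown for the target and for the members that hold the matching 7 bases in an untranslated region. Sequences were taken from GENCODE vM21 transcripts (GRCm38), whose coordinates differ from the GRCm39 coordinates given for the genes. In the sh2 guide strand the capitals mark the seed (bases 2 to 8), and in the transcripts they mark GTGGCCA, which pairs with it (sense strand only).
sh2 guide strand: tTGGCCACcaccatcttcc
Pla2g4e, coding sequence with the sh2 target: ggaagatggtgGTGGCCAagacactaagt
Lhx6, 3′ UTR, first match: agcatccagctGTGGCCAgggatccacca
Lhx6, 3′ UTR, second match: ccatgtggcaaGTGGCCAgctgagcccag
Maf, 3′ UTR of another annotated transcript: taacgtttgttGTGGCCAcacggaggcca
Dlx1, 5′ UTR: ctcgagctggaGTGGCCAgctgggcctgg
Satb1, 3′ UTR: tattacactctGTGGCCAtataatacctg

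The Lhx6 matches span chr2:36083973-36083979 and chr2:36082317-36082323 (GRCm38, minus strand). The Maf match spans chr8:115684362-115684368 (minus strand), the Dlx1 match chr2:71529129-71529135 (plus strand) and the Satb1 match, shown because this factor fell most among the other regulators described further on, chr17:51736998-51737004 (minus strand). In the longest coding transcript of each gene, Lhx6 was the single member with a match in the 3′ UTR, and it had 2. Among all 15656 genes with such a UTR, 13.4% had at least 1 match, and 14.6% of 15705 genes had one in any annotated 3′ UTR. The share of genes with 2 or more matches was not counted, and UTR length was not taken into account. Only some of the other genes described here were searched. Of these, Satb1, Nr2f2 and Slc17a7 held 1 match each in that UTR, while the down-regulated genes Slc6a11, Slc32a1, Abat, Erbb4, Nxph1 and Elfn1, the up-regulated genes Sst, Npy, Cck, Penk and Crhbp, and Npas3, which was not called, held 0. Outside that UTR, Slc32a1 held 4 matches in its coding sequence, Slc17a7 held 2, and Slc6a11, Npas3 and Crhbp held 1 each, and Abat held 1 in another annotated 3′ UTR. A match is a description of these letters, and its part in the lower Lhx6 level was not tested.

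Sox6 holds the longest other stretch of the sh2 target among the members, 13 bases in a row (target bases 6 to 18), in the coding sequence of 4 of its 10 coding transcripts at chr7:115579041-115579053 (GRCm38, minus strand). The Sox6 stretch includes the bases that pair with the seed. These 4 transcripts thus hold a seed match, while the longest coding transcript of Sox6 holds none in its coding sequence or 3′ UTR. A stretch of at least 13 bases was found in 0.285% of 15816 genes. The capitals mark the shared bases.
Sox6, coding sequence: ctctgaacATGGTGGTGGCCActcttaca

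Sox6 (chromosome 7, 115070107 to 115638031, minus strand) encodes an SRY-box factor that acts after Lhx6 in the positioning and maturation of interneurons. It was at 46.5, 50.4 and 48.2 CPM in shCtrl and at 41.2, 54.5 and 40.7 CPM in shPla2g4e. Replicate 2 of shPla2g4e was the highest of the 6 libraries and the other two shPla2g4e libraries were the lowest. The log2 fold change was −0.09 (SE 0.11, 95% interval −0.32 to 0.14, edgeR adjusted p = 0.672). It was −0.24 without shPla2g4e replicate 2 and −0.02 without shPla2g4e replicate 1 or 3.

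Maf (chromosome 8, 116409681 to 116434533, minus strand) encodes the bZIP factor c-Maf, which takes part in the somatostatin interneuron fate. Its level was 13.9, 12.3 and 14.4 CPM in shCtrl and 10.4, 11.6 and 9.08 CPM in shPla2g4e. The groups did not overlap, with shCtrl replicate 2 and shPla2g4e replicate 2 nearest to each other. The mean in shPla2g4e was 76.3% of that in shCtrl, a log2 fold change of −0.39 (SE 0.14, 95% interval −0.68 to −0.09) that missed the threshold with an edgeR adjusted p of 0.0827, or 0.0213 with the replicate block.

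**Figure D3:**
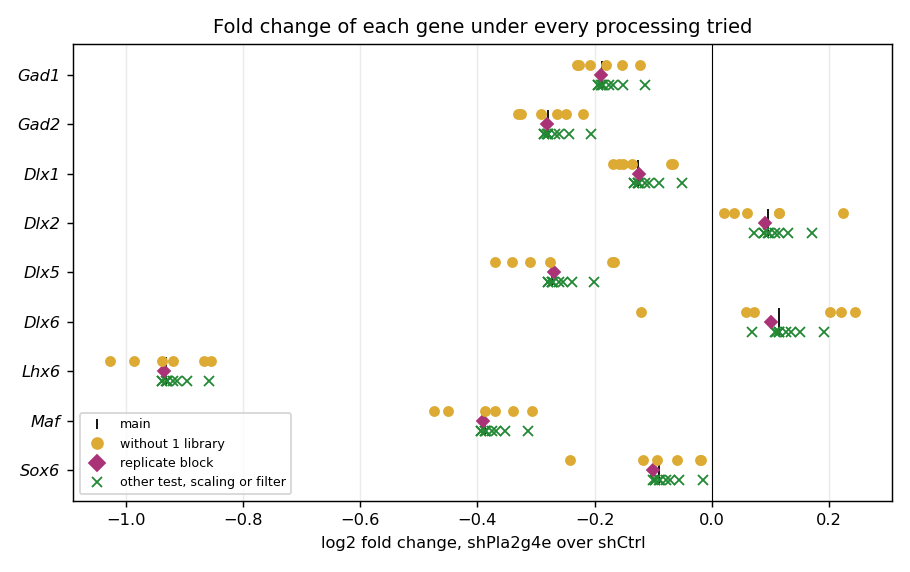
Log2 fold change (shPla2g4e over shCtrl) of each of the 9 genes in the main test (vertical tick), without 1 library (circles), with the replicate block (diamonds) and under another test, scaling or filter (crosses). Lhx6 stays between −1.03 and −0.85, and Dlx6 has points on both sides of 0.

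Of 16 other transcription factors of interneurons and their progenitors, 1 was down-regulated and 0 were up-regulated by edgeR (5 lower and 1 higher at an unadjusted p below 0.05, 1 and 0 by limma, 3 and 0 by DESeq2). The edgeR shares over all genes were 4.00% and 2.48%. The median log2 fold change of these 16 was −0.03 (−0.10 without shPla2g4e replicate 1 to 0.04 without shCtrl replicate 1), against 0.03 for all genes. Satb1, a chromatin organizer that Lhx6 is known to control in maturing interneurons, and which cortical projection neurons also express, was at 196, 208 and 167 CPM in shCtrl and at 107, 98.3 and 99.7 CPM in shPla2g4e. Its groups did not overlap, and its mean fell to 53.4% (log2 fold change −0.90, SE 0.089, edgeR adjusted p = 8.09e-06).

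With the replicate block, 5 of the 16 were down-regulated and 1 was up-regulated, against 9.02% and 6.50% of all genes. Npas3, a bHLH-PAS factor, had a log2 fold change of −0.71 (edgeR adjusted p = 0.0106, and 2.57e-07 with the block). Nr2f2, which encodes COUP-TFII of the caudal ganglionic eminence, had −0.56 (edgeR adjusted p = 0.0224, and 0.00131 with the block). The others called with the block, named after their values were seen, were Nr2f1 and Sp9, both lower, and St18, which was higher at a log2 fold change of 0.70 (edgeR adjusted p = 0.0304, and 0.00700 with the block).

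Beyond GABA synthesis, the transcripts for its loading, uptake and breakdown were lower in shPla2g4e for several genes. Of 9 such genes, 3 were down-regulated and none was up-regulated by edgeR, limma or DESeq2 (5 lower and 0 higher at an unadjusted p below 0.05). Of all genes tested, edgeR called 4.00% down-regulated and 2.48% up-regulated, with 12.9% lower and 12.8% higher at the unadjusted threshold. DESeq2 called 1214 genes down-regulated and 687 up-regulated. The median log2 fold change of this list was −0.40 (−0.14 without shCtrl replicate 2, −0.19 without shPla2g4e replicate 1 and −0.24 without shCtrl replicate 3). Slc32a1, the vesicular GABA transporter that defines GABAergic terminals, was at 63.9, 58.1 and 60.5 CPM in shCtrl and at 39.4, 39.2 and 38.6 CPM in shPla2g4e. The shPla2g4e libraries lay close together and far below the shCtrl libraries (log2 fold change −0.64, SE 0.082, edgeR adjusted p = 9.19e-05).

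Slc6a11, which encodes the mainly astrocytic transporter GAT-3, fell from 92.7 ± 12.4 to 48.4 ± 0.512 CPM (SD, n = 3, log2 fold change −0.94, edgeR adjusted p = 1.15e-05). The third, the GABA transaminase gene Abat, had a log2 fold change of −0.40 (edgeR adjusted p = 0.00443), but its adjusted p was 0.0211 without shCtrl replicate 1, 0.0197 without shCtrl replicate 2 and 0.0380 without shPla2g4e replicate 1, and 0.0115 when scaled by library size alone. The glutamine synthetase gene Glul, which astrocytes express, was not called (log2 fold change −0.63, edgeR adjusted p = 0.111), but it was with the replicate block (9.18e-12), without the filter on low counts and without shPla2g4e replicate 3.

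**Figure D4:**
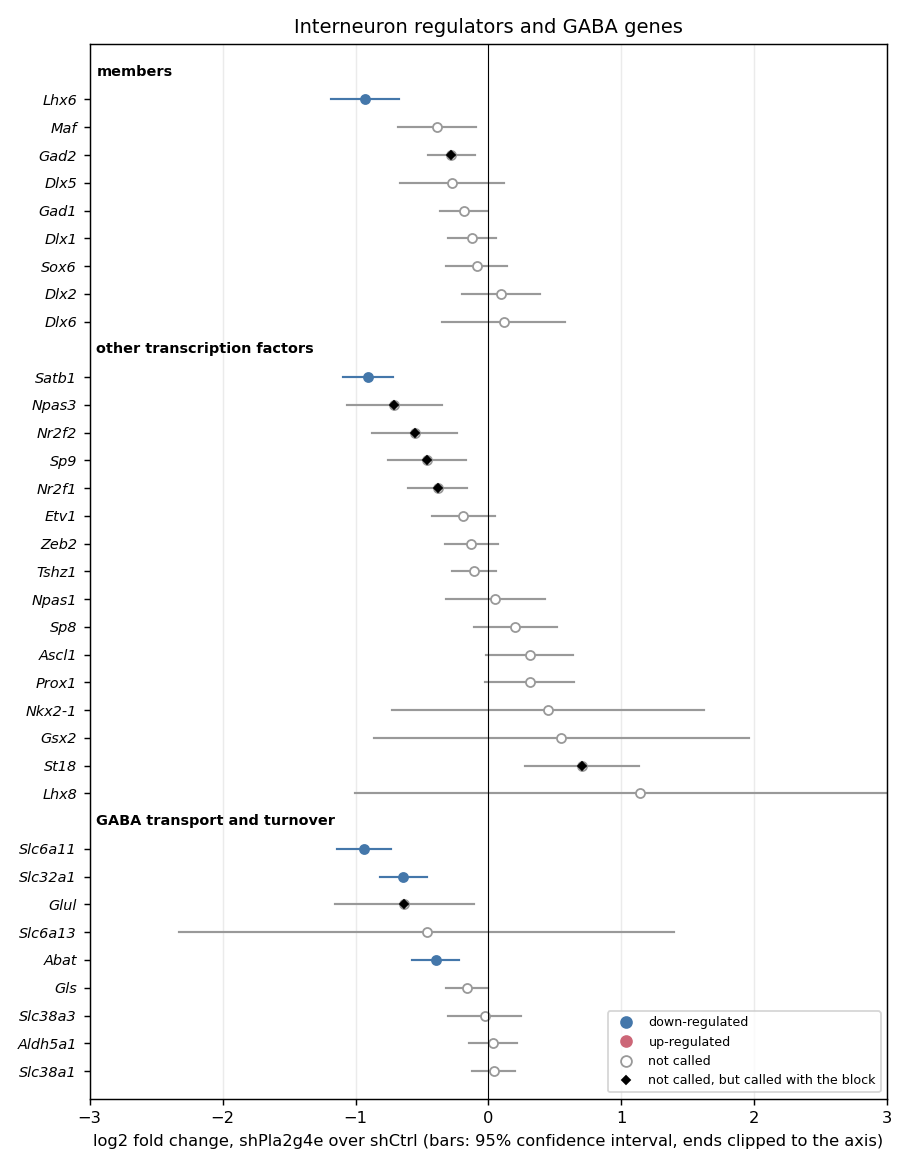
Log2 fold change (shPla2g4e over shCtrl, points) with its 95% confidence interval (bars) for the 9 genes, 16 other interneuron transcription factors and 9 genes of GABA transport and turnover, with filled points for DEGs and black diamonds for genes that are no DEGs but were called with the replicate block. Lhx6 at −0.93, Satb1 at −0.90 and Slc6a11 at −0.94 are the lowest DEGs of their groups.

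Of 8 genes described downstream of Dlx factors or Lhx6, 3 were down-regulated (Satb1, Erbb4 and Nxph1) and 2 were up-regulated (Sst and Npy), against 4.00% and 2.48% of all genes. The median log2 fold change of the 8 was −0.26 (−0.14 without shCtrl replicate 2). Erbb4, the neuregulin receptor of interneurons, went from 115 ± 6.13 to 85.0 ± 2.09 CPM (log2 fold change −0.43, edgeR adjusted p = 0.00146). Nxph1, a neurexin ligand of interneurons, had a log2 fold change of −0.54 (edgeR adjusted p = 0.00193, and 0.0112 without shCtrl replicate 1). Sst, which encodes somatostatin, rose from 96.7, 77.6 and 94.1 CPM in shCtrl to 137, 136 and 152 CPM in shPla2g4e (log2 fold change 0.66, SE 0.092, edgeR adjusted p = 1.76e-04). In these cultures Lhx6 and Sst thus moved in opposite directions, each without overlap between the groups.

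The 30 markers of interneuron subtypes split, with 7 down-regulated and 6 up-regulated, against 4.00% and 2.48% of all genes. Their median log2 fold change of 0.08 was −0.03 without shPla2g4e replicate 2 and −0.05 without shPla2g4e replicate 3. This split depended on the scaling, since library size alone gave 3 down-regulated and 7 up-regulated. With the replicate block 7 were down-regulated and 9 were up-regulated, since Vip, Htr3a (0.77, edgeR adjusted p = 0.0128, and 0.00108 with the block) and Tac1 (0.51, edgeR adjusted p = 0.306, and 0.00411 with the block) were also called. The log2 fold change of Tac1 was 0.14 to 0.96 when 1 library was left out. The split also depended on single libraries, since leaving out 1 library gave 2 to 6 down-regulated and 5 to 6 up-regulated. The neuropeptide genes Cck, Npy and Penk had the smallest p-values of the list. Cck rose from 138, 148 and 138 CPM to 307, 311 and 298 CPM (log2 fold change 1.11, edgeR adjusted p = 2.61e-07), and glutamatergic neurons are known to express Cck too.

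Npy rose from 27.3, 21.6 and 26.99 CPM to 60.5, 57.4 and 63.7 CPM (log2 fold change 1.26, edgeR adjusted p = 1.30e-06). Penk, which encodes proenkephalin, rose from 12.2 ± 1.79 to 31.5 ± 5.45 CPM (log2 fold change 1.37, edgeR adjusted p = 1.25e-05). Both neuropeptide genes had groups that did not overlap. Of the other up-regulated markers, Crhbp (1.70) lost its call in the robust fit (edgeR adjusted p = 0.0508) and Tac2 (1.19) when any library but shPla2g4e replicate 3 was left out (up to 0.0465). Tac2 also lost its call in limma (adjusted p = 0.0122) and under stricter filters on low counts (edgeR adjusted p = 0.0106 and 0.0109).

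Among the 7 down-regulated markers, Elfn1, a postsynaptic protein of somatostatin interneurons, had the largest decrease (log2 fold change −0.77, edgeR adjusted p = 2.60e-04). Kcnc2, Ndnf, Kit and Reln had edgeR adjusted p-values of 0.00767 to 0.00944 and lost their calls when shCtrl replicate 1, shCtrl replicate 2 or shPla2g4e replicate 2 was left out (and some of them without another library), with adjusted p-values of up to 0.0274, 0.0417, 0.0472 and 0.0581. Pvalb, the parvalbumin gene, was hardly expressed at 0.286 to 1.48 CPM, and its log2 fold change of 0.60 had an SE of 0.57 (edgeR adjusted p = 0.568). Vip was at 3.32 to 8.35 CPM in shCtrl and 6.75 to 19.2 CPM in shPla2g4e (log2 fold change 0.83, edgeR adjusted p = 0.125, and 2.55e-05 with the replicate block). Its log2 fold change was 0.31 to 1.11 when 1 library was left out.

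**Figure D5:**
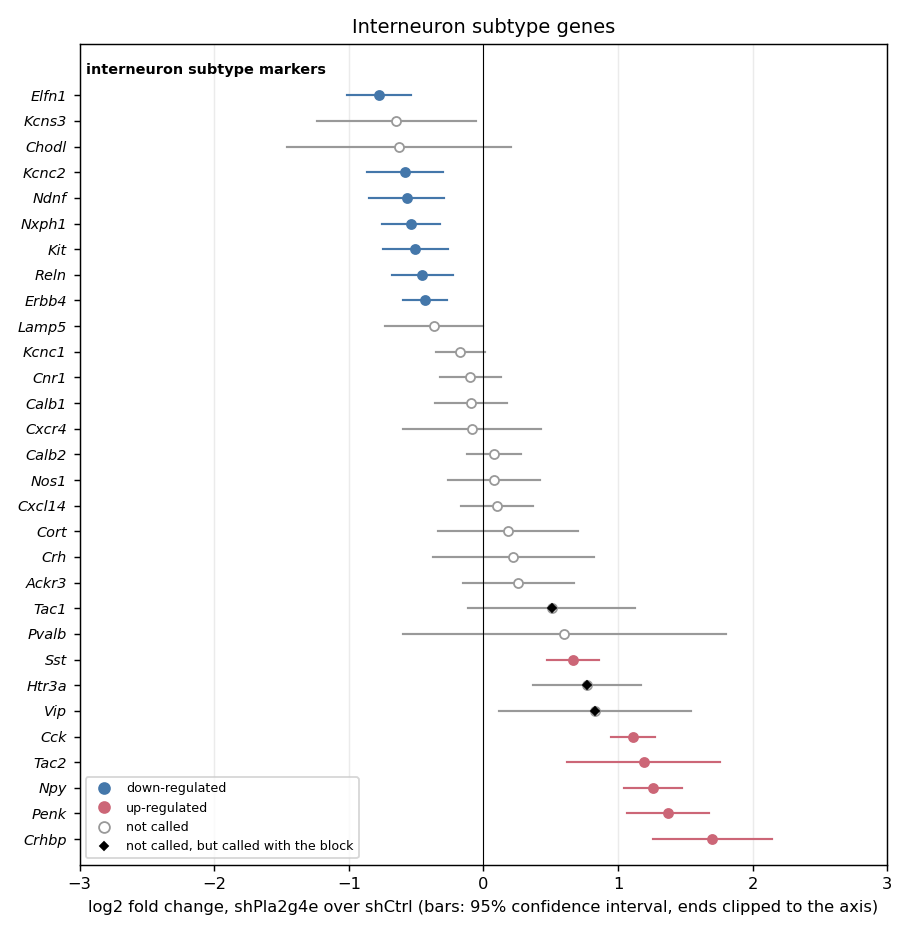
Log2 fold change (shPla2g4e over shCtrl, points) with its 95% confidence interval (bars) for 30 interneuron subtype markers, with filled points for DEGs and black diamonds for genes that are no DEGs but were called with the replicate block. The peptide genes Sst, Cck, Npy and Penk lie at 0.66 to 1.37, whereas Elfn1, Nxph1 and Erbb4 lie at −0.77 to −0.43.

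Some markers of glutamatergic neurons and of neurons in general differed between the groups as well. Of 15 glutamatergic markers 3 were down-regulated and 1 was up-regulated (with the replicate block 4 and 2, by DESeq2 4 and 0, median −0.22). Of all genes, edgeR without the block called 4.00% down-regulated and 2.48% up-regulated. Slc17a7, the vesicular glutamate transporter VGLUT1, fell from 745 ± 97.0 to 300 ± 11.2 CPM (log2 fold change −1.31, edgeR adjusted p = 3.69e-07). Nrgn (−0.53) and Neurod6 (−0.47) were also down-regulated, both losing the call without shCtrl replicate 2 (edgeR adjusted p = 0.0197 and 0.0257), and Neurod6 also without shPla2g4e replicate 2. The up-regulated marker, named after its values were seen, was Slc17a6, which encodes VGLUT2 (0.91, edgeR adjusted p = 0.00388). Its call was lost in DESeq2 (adjusted p = 0.0425), in the robust fit (0.168) and without shCtrl replicate 2 or 3 or shPla2g4e replicate 1 or 2 (0.0153 to 0.0178). Of 15 pan-neuronal markers 5 were down-regulated and 2 were up-regulated (median −0.16), against the same shares of all genes, with log2 fold changes of −1.68 for Tubb3, −0.51 for Dcx and 0.68 for Nefm. With the replicate block 6 were down-regulated and 3 were up-regulated, against 9.02% and 6.50% of all genes. Leaving out 1 library gave 1 to 5 down-regulated and 1 to 2 up-regulated of these 15, the median was −0.08 without shCtrl replicate 1, and Dcx lost its call without shCtrl replicate 2 (edgeR adjusted p = 0.0119). The summed level of the 9 members was 746 to 795 CPM in shCtrl and 635 to 690 CPM in shPla2g4e, and that of the pan-neuronal markers was 6634 to 7270 and 5923 to 6433 CPM. The part of neuronal content in the values of the members was not tested.

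Of 10 astrocyte markers 3 were down-regulated and none was up-regulated (Aqp4 −1.19, Gja1 −0.66 and Slc1a2 −0.50, median −0.27), against 4.00% and 2.48% of all genes. With the replicate block 7 were down-regulated and 1 was up-regulated, against 9.02% and 6.50% of all genes. Without shPla2g4e replicate 3 the median was −0.58, and without shCtrl replicate 3 it was −0.15. Leaving out 1 library gave 1 to 6 down-regulated. Aqp4 lost its call in the robust fit (edgeR adjusted p = 0.122) and in DESeq2 (0.0124, with 2 of the 10 down-regulated by DESeq2), Gja1 in the robust fit (0.0139) and without shPla2g4e replicate 1 or 2 (up to 0.0161) and Slc1a2 without any library but shPla2g4e replicate 3 (up to 0.0531). Their summed level was 2978 to 3805 CPM in shCtrl and 2051 to 3244 CPM in shPla2g4e, highest within each group in replicate 3. Gfap was at 520 to 801 CPM in shCtrl and 338 to 590 CPM in shPla2g4e (log2 fold change −0.62, edgeR adjusted p = 0.0267, and 6.26e-12 with the block). These values stand beside Slc6a11 and Glul, which astrocytes also express, and their part in those results was not tested.

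The values for oligodendrocytes, microglia and vascular cells follow. Of 9 oligodendrocyte lineage markers none was called (1 lower and 0 higher at an unadjusted p below 0.05, 0 by limma and DESeq2), with summed levels of 499 to 571 and 507 to 608 CPM. Pdgfra had a log2 fold change of 0.09, Mog 0.37 and Olig2 −0.38 (edgeR adjusted p = 0.0964, and 5.28e-04 with the replicate block). Microglial markers summed to 6.74 to 15.8 CPM in shCtrl and 3.98 to 7.77 CPM in shPla2g4e, with none of 9 tested called by edgeR, limma or DESeq2 (3 lower and 1 higher at an unadjusted p below 0.05), a median log2 fold change of −0.70 (8 of 9 below 0, −1.18 without shPla2g4e replicate 3 to −0.50 without shCtrl replicate 3) and Cx3cr1 at 0.0925 to 2.13 CPM. Of these, C1qc was called with the replicate block (log2 fold change −2.15), while P2ry12 and C1qa were not. Endothelial and mural markers summed to 48.9 to 87.7 and 54.0 to 103.2 CPM, with none of 9 tested called by the same 3 tools (0 lower and 2 higher at an unadjusted p below 0.05), a median of 0.46 (7 of 9 above 0, 0.23 without shPla2g4e replicate 3 to 0.59 without shCtrl replicate 3, and 0.29 without shCtrl replicate 2) and Cldn5 at 0 reads in all 6 libraries. Col1a1 (1.17) and Kdr (1.15) were up-regulated with the replicate block, and Pdgfrb had a log2 fold change of −0.32.

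The 5 other genes whose profile over the 6 libraries was nearest to the mean profile of the 9 members, out of 10951 ranked, were Klhdc4, Mapre3, Peli2, Dnm2 and Psmc3. Their mean absolute differences from that profile were 0.0147 to 0.0226 on the centred log2 CPM scale. The members themselves lay at 0.0605 for Gad1 and 0.0769 for Gad2 to 0.198 for Dlx6 and 0.349 for Lhx6, and the median over all genes ranked was 0.147. The 5 genes were picked as the nearest, so that their small distances are no result.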

How the data were processed

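The authors aligned the reads with STAR 2.7.0d, counted reads on exons per gene with featureCounts 1.6.0 and deposited raw read counts, 1 file per library. The methods name mm10 and GENCODE M18, but per the file headers the annotation was GENCODE vM28 (GRCm39). Libraries came from a stranded kit, yet the counting used no strand or read-pair option and left out multi-mapping reads, so antisense reads can count for a gene and near-identical copies can lose reads. Per the file headers no overlap option was set, and by default reads on exons of more than 1 gene then stay unassigned. Symbols came from GENCODE vM21 by identifier (52081 of 55357 genes matched).

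The 21876 genes with 6 or more reads in 1 or more libraries were fitted over all 6 libraries with edgeR 4.0.16 in R 4.3.3 (TMM, quasi-likelihood F test, Benjamini-Hochberg adjusted p below 0.01). CPM values (counts per library scaled to a common total) use the TMM factors. limma 3.58.1 after voom, the test of the study, and DESeq2 1.42.0 were alternatives, with other scalings and filters, a block on the replicate number, a robust fit, an adjusted p below 0.05 and each library left out. DESeq2 gave no adjusted p for 5514 genes. The scripts were tested on simulated data.

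Depth was 17054717 to 23570180 reads per library, and no pair of libraries differed by less than the sampling noise. Same-numbered libraries deviated together from their group means over 10908 genes (r = 0.392, 0.189 and 0.461, other pairs −0.393 to 0.108). The fit with the replicate block therefore treated the numbers as pairs, whereas the main fit used no pairing. That pairing is read from the data and the numbers in the labels.

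All members, Pla2g4e, the 3 genes with the smallest p of each list, the 5 genes of nearest profile, defining cell type markers and overlapping noncoding RNAs were named, and genes named otherwise were chosen after their values were seen. The members and the lists of other genes were chosen with earlier results of these data known. Some genes are not reported here and were taken out of the lists after their values were seen, DEGs among them, so counts and medians of those lists cover the genes kept, and the list of striatal markers is not reported. None taken out of the oligodendrocyte list or the family relatives was a DEG, and the other marker lists of non-neuronal cells were left whole.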

Additional observations from a re-analysis of the deposited data

How the results depend on the processing

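Over 17 alternatives, Lhx6 kept its direction and call, and no other member gained a call except Gad2, at an adjusted p below 0.05 and with the replicate block. The number of down-regulated members was then 2 under each of these, against 1. The number of DEGs over all genes was 3395 with the replicate block (holding all 1419 DEGs of the fit without it), 2813 at an adjusted p below 0.05, and 695 (without shCtrl replicate 2) to 1613 (without shPla2g4e replicate 3) when 1 library was left out. It was 854 without shPla2g4e replicate 1, 928 without shCtrl replicate 1 and 931 without shPla2g4e replicate 2. The share of DEGs that were down-regulated was 61.7% with TMM and 43.3% of 1405 with library size alone. The log2 fold change of Dlx6 ranged from −0.12 (without shPla2g4e replicate 3) to 0.24 with 1 library left out. The differences of the log2 ratios under the same omissions were 0.06 to 0.12 for Gad1 to Gad2, −0.29 to −0.16 for Dlx1 to Dlx2 and −0.57 to −0.21 for Dlx5 to Dlx6, and the replicate block left these differences as they were (exact permutation p within pairs of 0.25, 0.25 and 0.5). The block changed no call of a member other than Gad2. Dlx5 and Dlx6 had 86 to 150 reads in a library, the fewest of the members.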

Other observations

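Of 14 relatives of the members in the Dlx, Sox, Maf and Lhx families, 13 were tested (Dlx3 had at most 4 reads in a library), and none was called by edgeR, limma or DESeq2 (1 lower and 3 higher at an unadjusted p below 0.05), with a median log2 fold change of 0.22 (0.07 without shPla2g4e replicate 2, 0.34 without shCtrl replicate 3 and 0.47 without shPla2g4e replicate 3). Mafa had a log2 fold change of 1.43 (edgeR adjusted p = 0.0377) at 0.403 to 2.03 CPM. Mafg (0.22, edgeR adjusted p = 0.0762) and Sox5 (−0.32, edgeR adjusted p = 0.0785) were called with the replicate block and under no other alternative. Noncoding RNAs at the loci of the members had no call either (0 of 3 by the same tools, and 0 at an unadjusted p below 0.05). Dlx6os1, which is transcribed from the Dlx5 and Dlx6 locus, was at 63.4 ± 4.45 CPM in shCtrl and 66.6 ± 11.8 CPM in shPla2g4e (log2 fold change 0.07), and Gad1os was at most 1.36 CPM (−0.42).

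Of 8 proliferation markers 2 were down-regulated, against 4.00% of all genes. These were Mcm5 (−1.16, edgeR adjusted p = 8.29e-04) and Top2a (−1.001, edgeR adjusted p = 0.00613, and above 0.01 without shCtrl replicate 2 or 3 or shPla2g4e replicate 1 or 2, up to 0.0552). Mki67 had a log2 fold change of −1.13 (edgeR adjusted p = 0.0148, and 1.51e-08 with the replicate block). The summed level of the 8 markers was 80.9 to 108 CPM in shCtrl and 69.5 to 75.1 CPM in shPla2g4e.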
